A study of Mus musculus with 2 samples.

Results

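The genes described are 10 antioxidant and NRF2 response genes of the mouse, among 15745 genes with at least 1 UMI in either library. They are the glutathione peroxidase genes Gpx1, Gpx2 and Gpx4 and the stress response genes Hmox1, Nqo1, Gclm, Gclc, Srxn1, Txnrd1 and Prdx1. They were taken by symbol, matched to the Ensembl identifiers of the count table, and all 10 passed the minimum of 10 UMIs over both libraries. A UMI (unique molecular identifier) marks 1 captured transcript end, and levels are given as CPM, the UMIs of a gene per 1000000 UMIs of its library or cell class.

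The study profiled single cells of mouse intestinal organoids, miniature epithelia grown from intestinal crypts, by droplet 3' sequencing at day 5 and day 3 of culture. Both libraries came from wild type C57BL/6 organoids, with a labelled animal age of 10 weeks. Both cultures received ENR, a medium with EGF, Noggin and R-spondin that also held 1 mM N-acetylcysteine, itself an antioxidant and a cysteine source. The day 5 library had 1065 cells and the day 3 library 798 cells, with 1 library per day. Until day 3 the ENR held Y-27632 (10 µM, an inhibitor of ROCK) and 20% of a medium conditioned by Wnt3a-secreting cells, and from day 0 to 1 also CHIR99021 (3 µM, an inhibitor of GSK3). From day 3 to day 5 they had ENR alone, so age of culture and medium cannot be told apart. An organoid culture has no stromal, immune or vascular cells by design. The number of animals is not given in the sources used here.

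NRF2 (gene Nfe2l2) is a transcription factor that KEAP1 holds for degradation. Oxidants and electrophiles modify KEAP1, and NRF2 then enters the nucleus, pairs with small MAF proteins and binds antioxidant response elements. Its best known targets make glutathione, regenerate thioredoxin and peroxiredoxins, reduce quinones and break down heme. Glutathione peroxidases use glutathione to reduce peroxides. GPX1 is the common cytosolic enzyme, GPX2 the gastrointestinal one, typical of the crypt, and GPX4 reduces lipid hydroperoxides in membranes. GPX1, GPX2, GPX4 and TXNRD1 are selenoproteins.

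The core of the antioxidant response element, TGACNNNGC or its variant TGAGNNNGC, was searched on both strands of the RefSeq windows of 250 bases before to 50 after each gene start (GRCm38.p6). The table held 13 windows for 8 of the 10 genes. It had no entry for Hmox1 or Gclc. At least 1 match was found in 4 of the 13 windows (30.8%), against 27.8% of all 32851 windows. By gene, 4 of 8 (50%) had a match, against 30.8% of 27025 genes. The first form occurred in 12.4% of all windows and the second in 17.6%. The 4 windows with a match are shown because they are the genes of the NRF2 group in which the element's letters can be seen. Capitals mark the matches, and a match on the reverse strand is printed as its reverse complement. Each window runs 5′ to 3′ on the + strand of its chromosome, which is also the strand of its gene, at chr2:152105274-152105573 (Srxn1), chr4:116685349-116685648 (Prdx1), chr3:122245307-122245606 (Gclm) and chr10:82858956-82859255 (Txnrd1, the middle of its 3 windows).
Srxn1: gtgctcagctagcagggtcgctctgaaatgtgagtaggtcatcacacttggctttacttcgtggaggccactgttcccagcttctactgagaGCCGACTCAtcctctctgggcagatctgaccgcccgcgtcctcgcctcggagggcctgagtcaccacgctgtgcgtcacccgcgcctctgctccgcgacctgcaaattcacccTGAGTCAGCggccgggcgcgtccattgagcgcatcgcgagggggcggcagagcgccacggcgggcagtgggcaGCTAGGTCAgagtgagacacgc
Prdx1: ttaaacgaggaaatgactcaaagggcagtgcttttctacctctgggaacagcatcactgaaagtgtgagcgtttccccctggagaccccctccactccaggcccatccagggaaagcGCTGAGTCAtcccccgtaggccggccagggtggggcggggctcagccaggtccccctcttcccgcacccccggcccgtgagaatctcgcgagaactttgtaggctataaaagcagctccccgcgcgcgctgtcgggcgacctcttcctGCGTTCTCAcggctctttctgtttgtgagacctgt
Gclm: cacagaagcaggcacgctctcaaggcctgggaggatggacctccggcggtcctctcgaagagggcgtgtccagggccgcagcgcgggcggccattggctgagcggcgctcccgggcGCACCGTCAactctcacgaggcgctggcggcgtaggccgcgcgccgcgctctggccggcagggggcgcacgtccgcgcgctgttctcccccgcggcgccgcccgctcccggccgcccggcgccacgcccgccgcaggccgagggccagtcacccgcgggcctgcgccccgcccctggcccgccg
Txnrd1: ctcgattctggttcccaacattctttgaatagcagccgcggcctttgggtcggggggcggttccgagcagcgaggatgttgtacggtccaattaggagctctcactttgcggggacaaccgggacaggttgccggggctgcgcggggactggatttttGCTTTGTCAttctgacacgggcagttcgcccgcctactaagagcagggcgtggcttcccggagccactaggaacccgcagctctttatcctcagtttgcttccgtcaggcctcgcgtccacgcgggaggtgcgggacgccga

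Srxn1 held 3 matches. TGAGTCAGC lay 45 to 37 bases before the gene start on the gene's own strand. TGAGTCGGC lay 158 to 150 bases before the start and TGACCTAGC at bases 28 to 36 after it, both on the opposite strand. Prdx1 held TGACTCAGC 133 to 125 bases before the start and TGAGAACGC at bases 15 to 23 after it. Gclm held TGACGGTGC 134 to 126 bases before the start and Txnrd1 held TGACAAAGC 92 to 84 bases before it, and these 4 matches were on the opposite strand. Distances are counted from the RefSeq start of each window, which can differ from the start of the gene location given below. For Txnrd1 the window with the match lies inside the gene so located. The Txnrd1 window at the first base of that location held no match. None was found in the windows of Gpx1, Gpx2, Gpx4 or Nqo1. A match is a description of letters and not a binding site, and these files hold no binding data.

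The day 5 library held 17349076 UMIs (median 13549 per cell, lowest 6777) and the day 3 library 28764033 (median 32063.5, lowest 17601). Mitochondrial UMIs made 6.64% of the total at day 5 and 5.38% at day 3. The epithelial genes Epcam, Cdx2 and Krt8 stood at 950.2, 119 and 1543 CPM at day 5 and at 1006, 148 and 2068 CPM at day 3. Of the 8 immune markers listed, 4 were in the table and summed to 1.84 CPM at day 5 and 1.74 CPM at day 3. Of the 8 stromal and endothelial markers, 2 were in the table and summed to 0.634 CPM at day 5 and 1.01 CPM at day 3. The 18 enterocyte markers summed to 13769 CPM at day 5 and 979 CPM at day 3. With 1 library per day there is no replicate, so no test of day was made. A gene was called higher or lower where the levels differed at least 1.5-fold and their exact Poisson 95% intervals, which cover counting error only, did not overlap. PCR copies are collapsed by the UMI, but variation between cultures is not in these intervals. Cell names in the table are numbers and not barcodes, so barcodes shared between the libraries could not be counted.

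Between day 5 and day 3 the organoids held different glutathione peroxidase transcripts. At day 5 Gpx1 was the most abundant of the 3 and Gpx2 the least. At day 3 Gpx2 was the most abundant and Gpx1 the least. Of the 7 stress response genes, Gclc, Txnrd1, Nqo1 and Hmox1 were lower at day 5, Hmox1 almost at 0, and over all cells Gclm, Srxn1 and Prdx1 met no call. Of the 10 genes, 1 was higher and 5 were lower at day 5, against 12.3% and 31.5% of 12782 genes tested. Among the 320 day 5 cells that reached the lowest UMI total of day 3, 7 were lower, Srxn1 (-1.14) and Prdx1 (-0.70) included, against 23.0% of all genes, and 1 was higher, against 8.70%. That cut, at 17601 UMIs, also shifted the cell makeup. The median day 5 Enterocyte-like cell had 10430 UMIs and the median Proliferating-like cell 20955.5. Without Enterocyte-like cells 6 of the 10 genes were lower, against 29.4%. Over all cells their median log2 ratio, day 5 over day 3, was -0.82, and that of all tested genes was -0.33. With TMM scaling, which shifts every log2 ratio up by 0.31, the counts were also 1 and 5, against 18.8% and 17.1% of all genes.

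**Figure D1:**
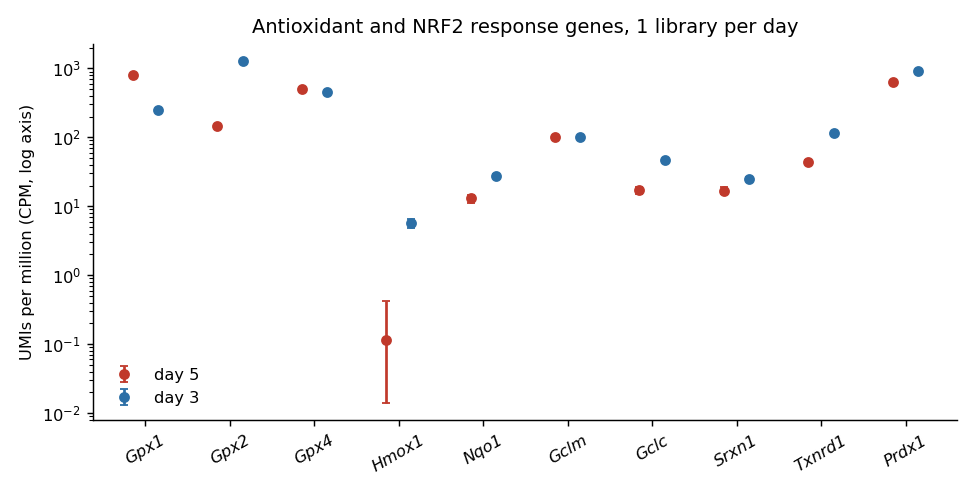
Level of each of the 10 genes in the day 5 library (red, left) and the day 3 library (blue, right), in CPM on a log axis. Bars are exact Poisson 95% intervals of 1 library each, and for most genes they are smaller than the points. Gpx1 is higher at day 5 and Gpx2 lower, while Gpx4 and Gclm lie close together and Hmox1 rests on 2 UMIs at day 5.

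Gpx2 (ENSMUSG00000042808, chromosome 12, 76792333 to 76795554, - strand of GRCm38) had 147 CPM at day 5 (interval 141 to 153) and 1263 CPM at day 3 (1249.6 to 1276). That is a log2 ratio of -3.10, or 8.59-fold lower at day 5. Over single cells the median was 64.3 CPM at day 5 (10th to 90th percentile 0 to 339) and 1175 CPM at day 3 (596 to 2022). The 90th percentile at day 5 lay below the 10th percentile at day 3. Only 1.46% of tested genes had a log2 ratio as low or lower.

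Gpx1 (ENSMUSG00000063856, chromosome 9, 108338903 to 108340343, + strand) went the other way. It had 809.6 CPM at day 5 (796 to 823) and 251 CPM at day 3 (245 to 257), a log2 ratio of 1.69. Median levels per cell were 838 CPM at day 5 and 233 CPM at day 3.

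Gpx4 (ENSMUSG00000075706, chromosome 10, 80047166 to 80056439, + strand) met no call, at 509.6 CPM at day 5 (499 to 520.3) and 452 CPM at day 3 (444 to 460.1). Its log2 ratio of 0.17 became 0.49 with TMM scaling. It became -0.41 without Enterocyte-like cells and -0.41 among the 320 day 5 cells that reached the lowest UMI total of day 3. The direction for Gpx4 therefore turned with the cells compared, and its spread between cells was wider at day 5 (10th to 90th percentile 159 to 1356 CPM) than at day 3 (276 to 653 CPM).

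As a share of the UMIs of the 3 genes, Gpx2 made 10.0% at day 5 (9.66 to 10.4) and 64.2% at day 3 (63.8 to 64.6). These are exact binomial 95% intervals that cover counting error only. Gpx1 made 55.2% at day 5 and 12.8% at day 3, and Gpx4 made 34.8% and 23.0%. These shares do not depend on the scaling of the libraries. The summed level of the 3 genes was 1466 CPM at day 5 and 1966 CPM at day 3. The difference was seen cell by cell. More Gpx2 than Gpx1 UMIs were found in 63 of 1065 day 5 cells (5.92%) and in 770 of 798 day 3 cells (96.5%). The cells of a day come from 1 library and are not replicates of the day. With every cell thinned to 6700 UMIs the shares were 7.23% at day 5 and 90.9% at day 3.

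Reads of these genes may be shared. A pseudogene copy of Gpx2 lies on chromosome 7 and one of Gpx4 on chromosome 10, Gpx2 lies within Fntb on the opposite strand, Gclm overlaps a pseudogene and an antisense transcript, and Txnrd1 overlaps Eid3 and 2 antisense transcripts. Strand use in the counting was not stated in the sources used here, so these genes' values carry that uncertainty.

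The glutathione synthesis genes split. Gclc (ENSMUSG00000032350, chromosome 9, 77754535 to 77794485) encodes the catalytic subunit of glutamate-cysteine ligase, the first and limiting enzyme. It had 17.1 CPM at day 5 (15.2 to 19.2) and 46.2 CPM at day 3 (43.7 to 48.7), a log2 ratio of -1.43. Gclm (ENSMUSG00000028124, chromosome 3, 122245557 to 122270732), its modifier subunit, had 100.4 CPM at day 5 (95.7 to 105) and 99.99 CPM at day 3 (96.4 to 104). Its log2 ratio was 0.01, with TMM 0.32 and among the deeper day 5 cells -0.43, and no call was made. Of this pair, only the catalytic subunit's gene was called lower over all cells. In Regenerating-like cells Gclm was called lower (-0.82) and Gclc met no call.

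Of the thioredoxin branch, Txnrd1 (ENSMUSG00000020250, chromosome 10, 82833951 to 82897712), the cytosolic thioredoxin reductase, was lower at day 5. It had 43.7 CPM at day 5 (40.6 to 46.9) and 116 CPM at day 3 (112 to 120.1), a log2 ratio of -1.41. Prdx1 (ENSMUSG00000028691, chromosome 4, 116685544 to 116700822), an abundant peroxiredoxin that thioredoxin recharges, had 644 CPM at day 5 and 929.8 CPM at day 3. Its log2 ratio of -0.53 was under the 1.5-fold threshold though the intervals were apart. Srxn1 (ENSMUSG00000032802, chromosome 2, 152105516 to 152111376) encodes sulfiredoxin, which repairs overoxidised peroxiredoxins. It had 16.8 CPM at day 5 (15.0 to 18.9) and 24.9 CPM at day 3 (23.1 to 26.7), a log2 ratio of -0.56 that met no call and was -1.22 without Enterocyte-like cells.

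Hmox1 (ENSMUSG00000005413, chromosome 8, 75093621 to 75100589) encodes heme oxygenase, which breaks heme down. It had 2 UMIs at day 5, in 2 cells, and 164 UMIs at day 3, in 98 cells. These are 0.115 CPM at day 5 (0.0140 to 0.416) and 5.70 CPM at day 3 (4.86 to 6.64), a log2 ratio of -5.31 with an exact interval of -8.69 to -3.75. Nqo1 (ENSMUSG00000003849, chromosome 8, 107388225 to 107403206) encodes a quinone reductase and is a standard readout of NRF2. It had 12.97 CPM at day 5 (11.3 to 14.8) and 27.4 CPM at day 3 (25.5 to 29.4), a log2 ratio of -1.08. Both genes were called lower at day 5, Hmox1 on few UMIs.

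The libraries also differed in cell makeup, so the day comparison was repeated within cell classes. Cells of each library were clustered without the 10 genes or the other listed redox genes, and a cluster was named only from its marker genes. The day 5 library gave 9 clusters and the day 3 library 13. Clusters that met the Enterocyte-like, Proliferating-like and Regenerating-like markers were present in both libraries. With both libraries clustered together, cells of these names lay mostly in clusters of 1 library. The joint Enterocyte-like clusters held 273 day 5 and 1 day 3 cells, and 236 and 2. The joint Proliferating-like cluster held 3 day 5 and 146 day 3 cells, and the Regenerating-like one 8 and 132. Further joint clusters, with 98 and 73 day 3 cells, were named Low oxygen-like. Bnip3 and Egln3 were among their leading genes. How many day 3 Enterocyte-like cells they held is not given here. A class thus shares marker genes between days but is not shown to be the same cell state.

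In Enterocyte-like cells (365 at day 5, clusters 1 and 3; 85 at day 3, cluster 5), 2 of the 10 genes were higher at day 5 and 6 were lower, against 12.9% and 24.4% of all genes. Gpx2 had 21.2 CPM at day 5 (16.9 to 26.2) and 770.0 CPM at day 3 (734 to 807), a log2 ratio of -5.18. Gpx1 had 1007 CPM at day 5 and 367 CPM at day 3, a log2 ratio of 1.46. Gpx4 was called higher in this class, at 1093 CPM at day 5 (1061 to 1126) and 554 CPM at day 3 (524 to 585), a log2 ratio of 0.98. Hmox1 had 0 UMIs at day 5 and 62 at day 3, which is at least 36.1-fold lower at day 5 when 3 UMIs are set as the floor over the class. Prdx1 was lower, with 661 CPM at day 5 and 1191 CPM at day 3. Gclm, with 161 CPM at day 5 and 172 CPM at day 3, met no call, nor did Srxn1, with 39.1 CPM at day 5 and 38.3 CPM at day 3, and the intervals of both overlapped. Nqo1, Gclc and Txnrd1 were lower, at log2 ratios of -1.21, -1.03 and -0.81. The median log2 ratio of the 10 genes was -0.83, unchanged with Hmox1 at its bound, and that of all genes was -0.27. Mitochondrial UMIs made 9.46% of this class at day 5 and 6.64% at day 3, and median UMIs per cell were 10430 and 23862. Their part in the differences was not tested.

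In Proliferating-like cells (246 at day 5, clusters 2 and 7; 97 at day 3, cluster 2), Hmox1 was under the minimum of UMIs, and of the other 9 genes 1 was higher and 4 were lower. The shares over all genes were 7.21% and 16.0%. Day 5 cluster 7 was led by Ccne2, E2f1 and Cdc6. Day 3 clusters 1 (led by Ccne2, Ung and Cdc6) and 11 (led by Ccne1 and Hist1h3c) were unnamed and left out. The class was therefore not matched between days for phase of the cell cycle. Gpx1 had 594 CPM at day 5 and 226 CPM at day 3, a log2 ratio of 1.39. Gpx2 had 222 CPM at day 5 and 1349 CPM at day 3, a log2 ratio of -2.60. Gpx4 leaned the other way from enterocytes, with 323 CPM at day 5 (309 to 339) and 444 CPM at day 3 (423 to 465), a log2 ratio of -0.46 that met no call. Txnrd1, Gclc and Nqo1 were lower, at log2 ratios of -1.30, -1.37 and -1.22. The median of the 9 genes was -0.72 and that of all genes -0.19.

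In Regenerating-like cells (17 at day 5, cluster 9; 67 at day 3, cluster 6), 2 genes were higher and 3 lower, against 7.76% and 11.0% of all genes. Gpx1 had 657 CPM at day 5 and 252 CPM at day 3. Gpx4 had 714 CPM at day 5 (637 to 797) and 451 CPM at day 3 (426 to 476), a log2 ratio of 0.67. Gpx2 had 153 CPM at day 5 (118 to 194) and 1514 CPM at day 3 (1470 to 1560.3), a log2 ratio of -3.30. The other lower genes were Gclm and Txnrd1, at -0.82 and -1.13. With 17 cells at day 5, Nqo1, Gclc and Srxn1 rested on 6, 11 and 15 UMIs there and met no call, nor did Prdx1 (-0.35). Hmox1 had 0 UMIs at day 5 and 14 at day 3, and 0 UMIs allow up to 6.84 CPM, above the 4.91 CPM of day 3, so no fold is given.

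**Figure D2:**
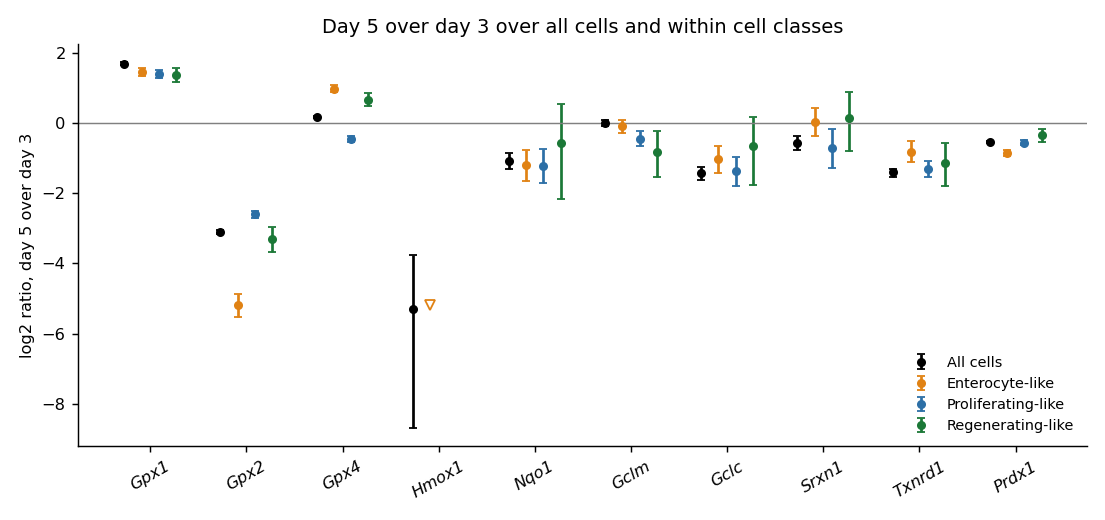
Log2 ratio of day 5 over day 3 for each gene over all cells (black) and within Enterocyte-like (orange), Proliferating-like (blue) and Regenerating-like cells (green), with exact 95% intervals for counting error. The open triangle is the bound for Hmox1 in Enterocyte-like cells, which had 0 UMIs at day 5. Gpx1 lies above 0 and Gpx2 below 0 in every set, while Gpx4 lies above 0 in Enterocyte-like and Regenerating-like cells and below it in Proliferating-like cells.

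Across clusters the 2 libraries did not share a Gpx profile. Gpx2 made 0.80% to 25.6% of the 3 genes' UMIs in the 9 day 5 clusters and 45.5% to 74.0% in the 13 day 3 clusters, so the ranges did not overlap. The highest day 5 share was in cluster 6, an unnamed cluster led by Marcksl1, Pla2g4a and Gkn3. The lowest day 3 share was in the Enterocyte-like cluster 5.

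**Figure D3:**
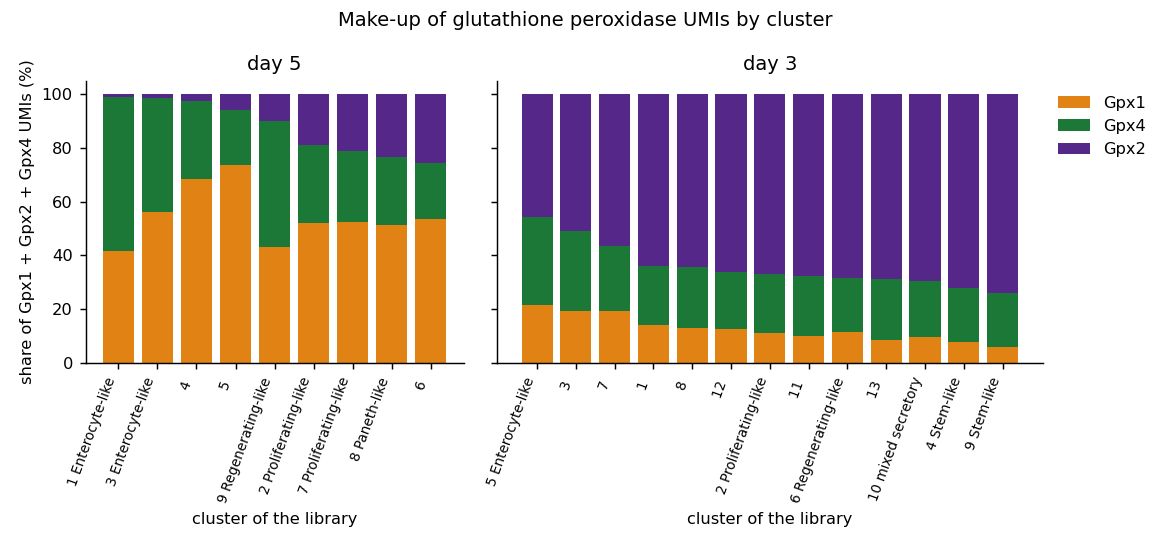
Share of the UMIs of Gpx1 (orange), Gpx4 (green) and Gpx2 (violet) in each cluster of the day 5 library (left) and the day 3 library (right), as percent of their sum. Clusters are ordered by the Gpx2 share and named where markers allowed. Gpx2 is the smallest part in every day 5 cluster but cluster 6 and makes between 45.5% and 74.0% in day 3 clusters.

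In order of level at day 5, Gpx2 was highest in cluster 6 at 311 CPM, above the next cluster beyond counting error. Proliferating-like clusters 7 and 2 (244 and 213 CPM) and Paneth-like cluster 8 (208 CPM) followed, and neighbours among these did not differ beyond their intervals. Regenerating-like cluster 9 had 153 CPM, unnamed clusters 5 and 4 had 85.9 and 42.0 CPM, and Enterocyte-like clusters 3 and 1 had 24.2 and 18.7 CPM. From the highest to the lowest cluster of at least 30 cells this was 16.7-fold. Day 3 clusters spanned 2.05-fold, from 1576 CPM in Stem-like cluster 9 to 770.0 CPM in Enterocyte-like cluster 5. Stem-like cluster 4 (1528 CPM), Regenerating-like cluster 6 (1514 CPM) and unnamed cluster 11 (1497 CPM) came next after cluster 9. From cluster 9 down to Proliferating-like cluster 2 (1349 CPM), neighbours did not differ beyond their intervals.

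Gpx4 had a different order at day 5. It was highest in Enterocyte-like cluster 1 at 1336 CPM, then Enterocyte-like cluster 3 at 798 CPM, and lowest in Paneth-like cluster 8 at 225 CPM, a range of 5.93-fold. The 5 lowest clusters, between 225 and 331 CPM, overlapped neighbour by neighbour. At day 3 it varied little, from 376 CPM in the mixed secretory cluster 10 to 554 CPM in Enterocyte-like cluster 5, and each cluster overlapped the next. Gpx1 stood at 973 to 1104 CPM in the Enterocyte-like clusters and unnamed clusters 4 and 5 of day 5, with neighbours overlapping, and at 454 CPM in Paneth-like cells. At day 3 its highest level was 367 CPM in Enterocyte-like cluster 5 and its lowest among clusters of at least 30 cells 122 CPM in Stem-like cluster 9, each cluster again overlapping the next.

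Ordering cells by their share of enterocyte marker UMIs, in 5 equal bins from low to high, gave the same contrast as a gradient. At day 5 Gpx2 fell over the bins, at 284, 203, 61.0, 29.9 and 22.0 CPM. Gpx4 rose over them, at 274, 321, 389.9, 755 and 1270.2 CPM. Gpx1 rose and then levelled, at 492, 714, 1045, 1049 and 1013 CPM. In the lowest day 5 bin Gpx2 and Gpx4 were therefore close together, and in the highest they were far apart. At day 3 Gpx2 stood at 1569, 1391, 1312, 1146 and 784 CPM, Gpx1 at 206, 211, 230.1, 282 and 348 CPM, and Gpx4 at 429.6, 428, 440.3, 477 and 499 CPM. The 284 CPM of Gpx2 in the lowest day 5 bin was below the 784 CPM of the highest day 3 bin. Over these bins mitochondrial UMIs made 5.00% in the lowest and 9.66% in the highest bin at day 5, and 4.61% and 7.11% at day 3. Median UMIs per cell were 19486 in the lowest and 10135 in the highest bin at day 5, and 34147 and 27554 at day 3. The part of either in the gradients was not tested.

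**Figure D4:**
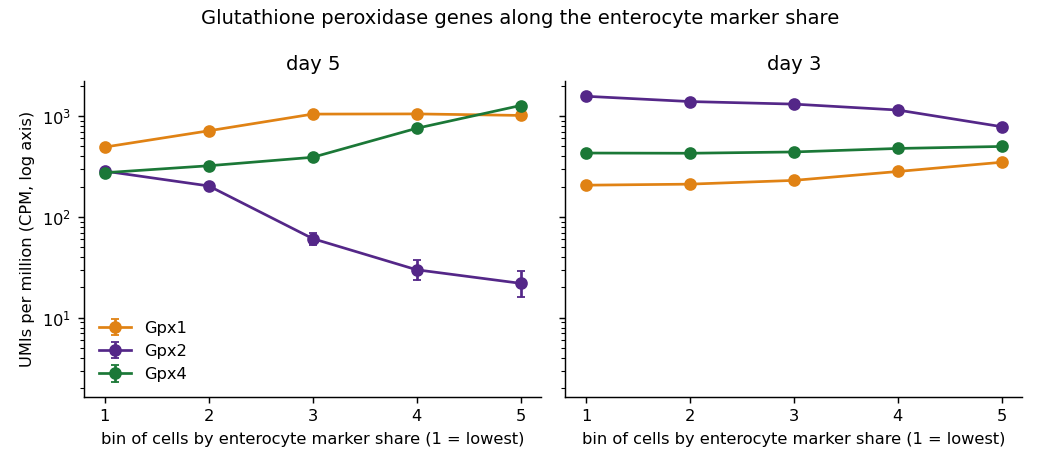
Levels of Gpx1 (orange), Gpx2 (violet) and Gpx4 (green) in 5 equal bins of cells ordered by the share of enterocyte marker UMIs, for day 5 (left, 213 cells per bin) and day 3 (right, 159 or 160 cells per bin), in CPM on a log axis. Bars are exact Poisson 95% intervals. Gpx2 declines with the enterocyte score on both days, and at day 5 Gpx4 climbs to 1270.2 CPM while Gpx2 drops to 22.0 CPM.

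Comparing the highest with the lowest bin, 6 of the 10 genes were higher and 1 lower at day 5, against 20.4% and 26.9% of all genes. The 6 were Gpx1, Gpx4, Nqo1, Gclm, Gclc and Srxn1, and Gpx2 was the lower one. Srxn1 had 4.09, 10.0, 17.5, 29.9 and 40.4 CPM over the bins, and Gclm had 65.2 CPM in the lowest and 168 CPM in the highest. At day 3, 4 were higher (Gpx1, Hmox1, Nqo1 and Gclc) and Gpx2 was lower, against 11.6% and 10.4% of all genes, and after thinning to 6700 UMIs per cell 2 of the 4 were called higher, Hmox1 and Gclc. Txnrd1 and Prdx1 met no call in either library.

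Within the day 5 library, cluster 1, the Enterocyte-like cluster with the highest Gpx4, had 6 of the 9 measured genes higher than the other day 5 cells and 1 lower, against 19.1% and 20.4% of all genes. They were Gpx4, Nqo1, Gclm, Gclc, Srxn1 and Txnrd1, with Gpx2 lower. Srxn1 stood at 51.4 CPM there and at 4.01 CPM in cluster 6. Mitochondrial UMIs made 10.6% of cluster 1. Over the 8 clusters of at least 30 cells, 8 of the 10 genes were at least 2-fold apart between highest and lowest. The share of all genes was 53.6%. In the 12 such clusters of day 3, 9 of the 10 genes were, against 59.0% of all genes. At a clustering resolution of 0.5 the counts were 8 at day 5 and 7 at day 3. With both libraries clustered together they were 7 and 6. The shares of all genes in these clusterings are not given here.

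At day 3 the stress response genes peaked in different clusters. Cluster 7 (48 cells) was led by Serpinb6b, Lama3, Mal and Sprr1a and held too few markers to be named at resolution 1. Of the 10 genes, 4 were higher there than in the other day 3 cells (Gclc, Txnrd1, Srxn1 and Hmox1) and 0 lower, against 26.7% and 9.43% of all genes. Gclc stood at 177 CPM (158 to 196), against 60.6 CPM in cluster 12, the next highest. Of its 48 cells, 45 had a Gclc level above the median of all day 3 cells and 44 a Txnrd1 level above it. Txnrd1 had 224 CPM there (203 to 246), against 175 CPM in cluster 12 (153 to 198), the next highest. In Stem-like cluster 4 it had 83.4 CPM. Srxn1 had 66.9 CPM, but 1 cell held 33.8% of those UMIs. Without that cell the level was 45.7 CPM (36.6 to 56.5), which overlapped cluster 12 at 41.9 CPM (31.8 to 54.1). Gclc without its top cell was 152 CPM. Among clusters of at least 30 cells at resolution 0.5, day 3 Gclc, Srxn1 and Txnrd1 were highest in a Regenerating-like cluster of 138 cells. Gclc stood at 85.1 CPM there. With both libraries clustered together they were also highest in a Regenerating-like cluster, with Gclc at 91.9 CPM. Cluster 7 itself was not in the Regenerating-like class compared between days, where Gclc stood at 41.0 CPM at day 3.

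Among the other listed genes, Slc7a11, the cystine importer that feeds cysteine to glutathione, had 173 CPM in cluster 7, which held 42.2% of all day 3 UMIs of the gene, and Nfe2l2 had 342 CPM. Gsr, which reduces oxidised glutathione, was above the day 3 median in only 12 of the 48 cells, and Prdx1 in 13. Mitochondrial UMIs made 10.5% of cluster 7, against 5.38% of the day 3 library, with a median of 36807 UMIs per cell. Their part in the result was not tested, and doublets were not called.

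The Enterocyte-like cluster 5 of day 3 (85 cells) had 5 genes higher than the other day 3 cells, Gpx1, Hmox1, Nqo1, Gclm and Srxn1, and Gpx2 lower, against 8.10% and 18.3% of all genes. It held 37.8% of the library's Hmox1 UMIs, 62 of 164, in 24 of its cells. Hmox1 stood at 27.0 CPM there, above cluster 7 at 12.9 CPM beyond counting error, but 1 cell held 24.2% of those UMIs. Without it the level was 20.7 CPM (15.2 to 27.5), which overlapped the interval of cluster 7 (8.33 to 19.0). Gclm was also highest there, at 172 CPM. Gclc and Txnrd1 were not among its higher genes, at 54.4 and 86.2 CPM. Cluster 12 (31 cells, unnamed, led by Ano3, Gna15 and Ddit4l) had 3 genes higher, Nqo1, Srxn1 and Txnrd1, and 0 lower, against 2.85% and 5.41% of all genes. Nqo1 had its highest level there, 47.6 CPM, overlapping the 46.2 CPM of cluster 5. With both libraries clustered together, day 3 Hmox1, Gclm and Nqo1 were highest in a Low oxygen-like cluster, at 24.6, 161 and 43.3 CPM. This was among clusters of at least 30 cells.

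**Figure D5:**
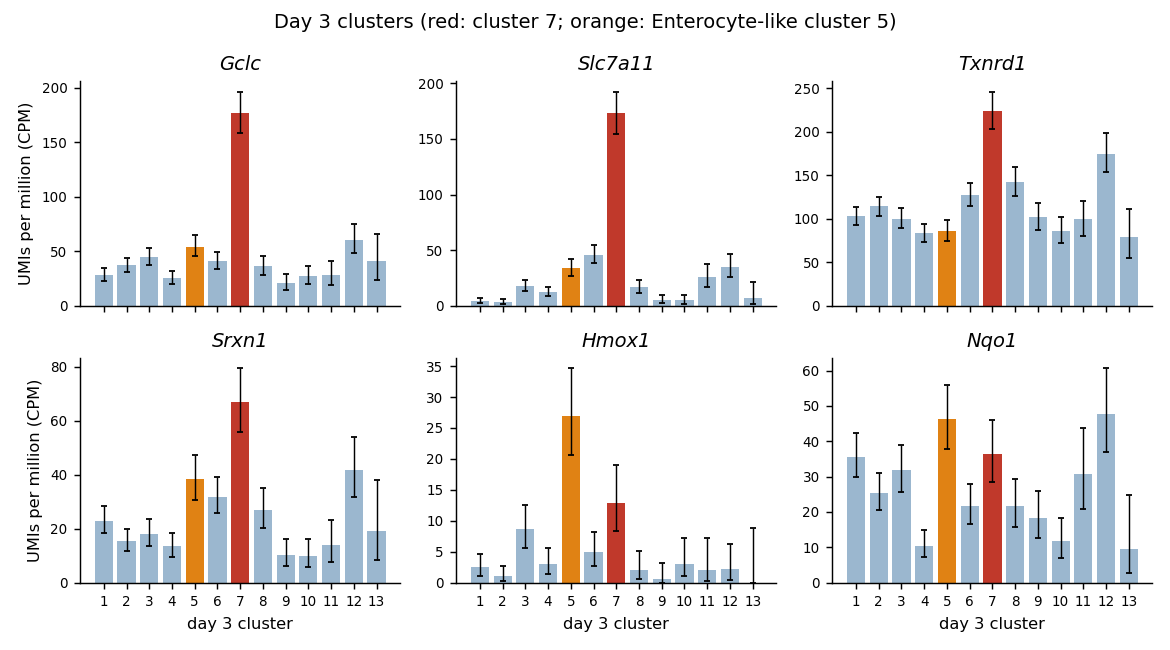
Levels of 6 genes in the 13 clusters of the day 3 library, in CPM, with exact Poisson 95% intervals. Cluster 7 is red and the Enterocyte-like cluster 5 orange. Gclc, Slc7a11, Txnrd1 and Srxn1 are highest in cluster 7, Hmox1 in cluster 5, and Nqo1 in cluster 12 with cluster 5 close to it. For Srxn1 in cluster 7 and Hmox1 in cluster 5, the interval without the cell with most UMIs overlaps that of another cluster.

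The other genes of the pathway were read from 7 lists of 83 genes in all, of which 82 had enough UMIs. Of these, 14 were higher at day 5 and 30 lower, at a median log2 ratio of -0.47, against -0.33 over all tested genes. With TMM scaling 23 were higher and 16 lower. All tested genes turned in the same way, with 12.3% higher and 31.5% lower by CPM and 18.8% and 17.1% with TMM. In each list the extreme log2 ratios are named, 2 at either end, and Nfe2l2 besides as the factor itself.

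Of 10 NRF2 regulators, 1 was higher and 3 lower, at a median of -0.50, against 12.3% and 31.5% of all genes. With TMM scaling 3 were higher and 3 lower, against 18.8% and 17.1% of all genes. At a fold of 2 the counts were 0 and 1, against 1061 and 1959 of 12782 genes. Nfe2l2 itself had 157 CPM at day 5 and 166 CPM at day 3, a log2 ratio of -0.08 and no call. Keap1, its inhibitor, had 26.3 CPM at day 5 and 52.4 CPM at day 3 (-0.99), and Mafg, a small MAF partner, 21.5 and 63.9 CPM (-1.57). Sqstm1, a receptor for selective autophagy that also binds KEAP1, was higher, at 35.2 CPM at day 5 and 22.0 CPM at day 3 (0.68). Mafk, another small MAF gene, met no call at 0.54.

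Of 24 other NRF2 targets, 3 were higher and 12 lower, at a median of -0.58, against 12.3% and 31.5% of all genes. With TMM scaling 7 were higher and 8 lower, against 18.8% and 17.1%. Slc7a11 had 16 UMIs at day 5 and 796 at day 3, a log2 ratio of -4.86, and in Enterocyte-like cells 0 UMIs at day 5 and 78 at day 3. In Regenerating-like cells it had 22.8 CPM at day 5 (10.9 to 41.9) and 45.9 CPM at day 3 (38.4 to 54.5), a log2 ratio of -0.95 that met no call, and these 17 day 5 cells held 10 of the 16 day 5 UMIs. Akr1b8, an aldo-keto reductase, had 9.91 CPM at day 5 and 57.4 CPM at day 3 (-2.53). Ephx1, the microsomal epoxide hydrolase, was higher, at 37.3 CPM at day 5 and 13.8 CPM at day 3 (1.44), as was Osgin1 (0.79).

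Of 11 other peroxide and superoxide enzymes, 3 were higher and 2 lower, at a median of -0.03, against 12.3% and 31.5% of all genes. With TMM scaling 4 were higher and 0 lower, against 18.8% and 17.1% of all genes. Cat, the peroxisomal catalase, had 182 CPM at day 5 and 33.2 CPM at day 3, a log2 ratio of 2.45. Within classes it was higher in Enterocyte-like cells (482 CPM at day 5, 63.1 CPM at day 3) and in Proliferating-like cells (55.5 and 24.3 CPM). In Regenerating-like cells Cat was also higher (47.9 CPM at day 5, 22.8 CPM at day 3), on 21 and 65 UMIs. Gpx3, a secreted isoform, rested on 16 UMIs at day 5 and 5 at day 3 (2.31), and Gpx8, an isoform of the endoplasmic reticulum, on 1 and 18 UMIs (-2.90). Prdx6 was lower at -0.61.

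Of 14 other glutathione and thioredoxin genes, 3 were higher and 8 lower, at a median of -0.75, against 12.3% and 31.5% of all genes. With TMM scaling 3 were higher and 4 lower, against 18.8% and 17.1% of all genes. Ggt1, which degrades extracellular glutathione at the brush border, had 416 UMIs at day 5 and 3 at day 3, a log2 ratio of 7.62 with an exact interval of 6.29 to 10.13. It was concentrated in the enterocyte bins, with 135 CPM in the highest day 5 bin and 0.646 CPM in the lowest. Txnip, which inhibits thioredoxin, had 296 CPM at day 5 and 67.9 CPM at day 3 (2.12). Within classes its log2 ratio was 2.35 in Proliferating-like and 3.21 in Regenerating-like cells, but in Enterocyte-like cells it met no call, at 165 CPM at day 5 and 125 CPM at day 3 (0.41). Gsr had 66.9 CPM at day 5 and 233 CPM at day 3 (-1.80). Gsr was lower within Enterocyte-like (-3.66), Proliferating-like (-1.17) and Regenerating-like cells (-1.60). Ggct, which acts in glutathione breakdown, was lower at -1.18.

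Since 4 of the 10 genes encode selenoproteins, the machinery that inserts selenocysteine was read too. Of its 7 genes 0 were higher and 2 lower, Sephs1 (-0.74) and Trnau1ap (-0.72), at a median of -0.53. The share of all genes was 12.3% higher and 31.5% lower. With TMM scaling 0 of the 7 were lower, against 17.1% of all genes. Sephs2, the selenophosphate synthetase, was close on both days, at 193 CPM at day 5 and 206 CPM at day 3 (-0.09), as was Sepsecs, which makes selenocysteine on its tRNA, at 12.9 CPM at day 5 and 13.3 CPM at day 3 (-0.05). Of 12 other selenoprotein genes 3 were higher and 4 lower, at a median of -0.03, against 12.3% and 31.5% of all genes. With TMM scaling 5 were higher and 1 lower, against 18.8% and 17.1% of all genes. Selenop, the secreted selenium carrier, had 721 CPM at day 5 and 31.1 CPM at day 3 (4.53). It was higher in Enterocyte-like cells (1601 CPM at day 5, 174 CPM at day 3) and in Proliferating-like cells (307 and 10.3 CPM). In Regenerating-like cells Selenop was also higher (607 CPM at day 5, 12.3 CPM at day 3). Selenow was higher (1.70), while Selenot (-0.80) and Selenon, on 2 and 31 UMIs (-2.93), were lower.

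Of 7 epithelial oxidant source genes, 1 was higher, Noxa1 (0.74), and 1 lower, Nox1 (-2.003), against 12.3% and 31.5% of all genes. Nox1, an NADPH oxidase of the gut epithelium, rested on 8 UMIs at day 5 and 56 at day 3. Cyba, a subunit shared by several NADPH oxidases, met no call (-0.12), nor did Duoxa2, on 13 and 43 UMIs (-0.96). The list's median was -0.57.

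Across cells of 1 library, the genes whose levels were most like each Gpx gene were different for the 3 isoforms. The measure was Pearson's r of log levels over cells, among genes of at least 50 CPM that were not mitochondrial, ribosomal protein or predicted genes. Cells of a library share their depth and free RNA, so r is a description. At day 5 (1065 cells, 1916 genes) Gpx4 was most like Crip1, Apoa4 and Apoa1 (r = 0.76 for each), Gpx1 most like Adh1 (0.58), Cda (0.54) and Rbp2 (0.53), and Gpx2 most like Ptma (0.63), Ncl (0.63) and Snrpf (0.61). At day 3 (798 cells, 2283 genes) Gpx2 was most like Erh (0.58), Eif5a (0.58) and Ptma (0.56). Gpx1 was most like Fth1 (0.41), Phgr1 (0.38) and Cda (0.35), and Gpx4 most like Fth1, Txn1 and Chchd10 (0.36 for each). Gpx2 ran against Gpx4 (r = -0.48) and Gpx1 (-0.38) at day 5, and against Gpx1 (-0.23) at day 3.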

How the data were processed

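Single-cell libraries of organoids at day 5 and day 3 were prepared with a droplet 3' kit, per the labels' protocols. Reads were processed with Cell Ranger 1.3.0 against mm10, per the submitters' processing notes. Which cells were filtered out, and whether strand was used, is not given in the sources used here. Raw UMI counts per gene and cell, as deposited, were used for every value, and the deposited log2 values, which equal log2 of scaled counts plus 1, only for an alternative. The 15745 Ensembl identifiers were matched to symbols for 15681 genes. Gene locations came from GENCODE, and promoter windows from RefSeq.

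UMIs were summed per library or cell class, divided by the total and given as CPM with exact Poisson 95% intervals (scipy 1.17.1). A log2 ratio adds 0.5 UMI to each sum. Genes needed 10 UMIs over both groups. The call (1.5-fold, intervals apart) was tested on simulated counts. Each library was clustered alone (scanpy 1.11.5, Leiden; 2000 variable genes without the 10 genes and the listed redox genes, 30 components, 15 neighbours, resolution 1). A cluster was named X-like where at least 3 markers of that type were among its 25 leading genes. No doublet caller was run. TMM factors came from edgeR 4.0.16. The alternatives tried were other scalings, no minimum, a fold of 2, thinning to 6700 UMIs per cell, other clusterings and bins, and cells left out. The 10 genes, the lists and the naming rule were chosen with earlier results of these data known, and the lists are no independent evidence. In each list the extreme log2 ratios are named, 2 at either end, and for each Gpx gene the 3 genes with the highest correlation over cells.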

Additional observations from a re-analysis of the deposited data

How the results depend on the processing

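With 1 library per day no replicate could be left out, and culture-to-culture variation is unknown. No paired analysis was possible because each day has 1 library and no replicate numbers are shared. Over 9 alternatives the log2 ratio had the same sign in 9 of 9 for 8 genes, including Gpx1 (1.43 to 2.003), Gpx2 (-3.52 to -2.67) and Txnrd1 (-1.49 to -0.96). The sign changed for Gclm (-0.43 to 0.32, same sign in 6) and Gpx4 (-0.41 to 0.49, same sign in 7). Hmox1 ranged between -5.91 and -0.13, the last being a difference of mean deposited log2 values, where most cells are 0. Of the 82 listed genes, 14 higher and 30 lower became 23 and 16 with TMM scaling, and 8 and 12 at a fold of 2. Of all 12782 tested genes, 1571 higher and 4028 lower became 2404 and 2182 with TMM, and 1061 and 1959 at a fold of 2. The Gpx2 share of the 3 Gpx genes at day 5 was 14.6% without Enterocyte-like cells and 16.4% among cells with the day 3 minimum of UMIs. At day 3 it was 65.6% without Enterocyte-like cells and 61.7% as the mean of per-cell shares. Thinning left 2 genes higher in the top enterocyte bin of day 3. With each Regenerating-like cell weighed alike, 1 gene was higher and 5 lower at day 5. In day 3 cluster 7, leaving out the cell with most UMIs, an alternative chosen after seeing the data, gave 152 CPM for Gclc, 45.7 for Srxn1 and 153 for Slc7a11, and in cluster 5 20.7 for Hmox1. Hmox1 at day 5 rested on 2 UMIs (0.0140 to 0.416 CPM), so counting error sets its log2 ratio only within -8.69 to -3.75. The limit that a count of 0 allows, 3 UMIs, is 0.173 CPM over the day 5 library.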
